A study of Mus musculus with 14 samples.

Results

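The genes described here are 10 neighbours of Junb on mouse chromosome 8: the adhesion receptors Adgrg1 and Adgre5, the enzymes Mri1, Hmox1, Inpp4b, Lpcat2 and Dnase2a, the calcium channel gene Cacna1a, the iron-sulfur assembly gene Ciapin1 and the coiled-coil gene Ccdc102a. They were selected on measured values: their start lies within 10 Mb of the start of Junb and their p-value was low in at least 1 of 3 comparisons of JunB-deficient with control regulatory T cells (Tregs). The genotype differences that follow are therefore descriptions of genes picked for them, and no test on them is offered as support. Of 445 annotated genes in this window, 158 passed the filter on low counts in at least 1 genotype comparison, 56 of these had an unadjusted p under 0.05 somewhere, and the 10 genes are among those 56. All 10 passed the filter in each comparison, although Lpcat2 passed 1 of them only through its control libraries. The rule gives no number for a low p: the lowest p of the 10 genes is at most that of Dnase2a, and 23 genes of the window reach it. Adgrg1 lies just inside the window, at 9.996 Mb from Junb, and Adgrg3, just outside at 10.04 Mb, had a log2 fold change of 0.09 in the only genotype comparison where it passed the filter, that of the colon.

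RNA-seq was performed on sorted mouse Tregs in 14 libraries that form 3 comparisons of genotype. Peyer's patch (PP) Tregs, sorted as CD4+Foxp3(YFP)+CD62L-, came from 2 male control mice (JunB F/+ Foxp3YFPcre, HET) and 2 male knockout mice (JunB F/F Foxp3YFPcre, KO), and no agent was given. In the inducible line, TCRb+CD4+Foxp3(EGFP)+tdTomato+ Tregs came from mice given tamoxifen in 3 gavages of 8 mg and were collected on day 7. They came from the colon of 3 control mice (iHET, JunB F/+) and 3 knockout mice (iKO, JunB F/F), and as CD25- cells from the PP of 2 iHET and 2 iKO mice. Replicate 1 of each inducible group was a male carrying Foxp3ERT2cre+, and the other replicates were females carrying Foxp3ERT2cre+/+, all with Rosa26-tdTomato+. The mice were adult littermates, generally 8 to 12 weeks old in the Foxp3YFPcre line and 10 to 12 weeks old in the inducible line. Every control carried Cre and a floxed Junb allele, so JunB-deficient Tregs were set against Tregs with 1 floxed allele, never against wild type. The Foxp3YFPcre line is known to delete Junb outside Tregs at times, while deletion in the inducible line needs both Foxp3 expression and tamoxifen.

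The layout of the alleles bears on every genotype value given for this chromosome. The floxed Junb allele came from another laboratory and was bred to C57BL/6 mice for several generations. Knockout mice carried the floxed chromosome in both copies and control mice in a single copy, so genes linked to Junb differ between the groups in which copies they come from as well as in JunB. Loss of JunB and alleles inherited together with the floxed gene cannot be told apart in any of the 3 genotype comparisons. Comparisons of organs within a genotype do not share this layout.

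JunB is a subunit of AP-1, a family of paired leucine-zipper proteins that bind short DNA motifs and, in T cells, act together with BATF and IRF4. Genes that sit side by side on a chromosome are inherited as a block and may also share regulatory elements, although neighbours often have unrelated functions, as these do. Tregs are CD4 T cells that express Foxp3 and restrain immune responses, and those of the gut meet food and microbial antigens.

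The promoter sequences shown are those of Mri1, which was lower in the knockout libraries of all 3 comparisons, and of Adgrg1, which had the highest fold change of the 10 genes in PP Tregs. They were taken from RefSeq (build GRCm38.p6) as the 250 bases before a listed start, and 7 of the 10 genes had such an entry. Capitals mark the AP-1 motif TGACTCA, searched on both strands. The 2 windows of Adgrg1 belong to different listed starts inside the annotated gene.
Mri1, chr8:84257325-84257574, minus strand: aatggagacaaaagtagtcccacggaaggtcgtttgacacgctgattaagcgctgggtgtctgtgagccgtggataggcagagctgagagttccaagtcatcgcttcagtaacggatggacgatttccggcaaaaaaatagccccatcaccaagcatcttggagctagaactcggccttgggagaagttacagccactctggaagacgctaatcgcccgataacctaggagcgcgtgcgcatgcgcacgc
Adgrg1, first start, chr8:94976859-94977108, plus strand: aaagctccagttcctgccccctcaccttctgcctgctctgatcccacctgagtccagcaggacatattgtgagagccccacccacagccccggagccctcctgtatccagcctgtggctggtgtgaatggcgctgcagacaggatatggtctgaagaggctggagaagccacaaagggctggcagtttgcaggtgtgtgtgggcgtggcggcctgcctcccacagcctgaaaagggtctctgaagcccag
Adgrg1, second start, chr8:94984149-94984398, plus strand: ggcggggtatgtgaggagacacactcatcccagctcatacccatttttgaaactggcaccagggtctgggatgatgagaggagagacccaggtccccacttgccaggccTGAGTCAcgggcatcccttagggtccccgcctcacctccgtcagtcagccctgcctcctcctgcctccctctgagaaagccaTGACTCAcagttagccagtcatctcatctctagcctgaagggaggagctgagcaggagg
The second window of Adgrg1 held the motif at 2 places, which begin 141 and 59 bases before the start. TGACTCA was in 4.46% of all 32851 promoter windows of this length, and 0.167% of them held it at 2 or more places. Of the 8 windows of the 10 genes, that window was the only 1 with TGACTCA, and no window held TGACGTCA, which 1.55% of all windows held. A match describes the letters only.

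The libraries held between 26274861 and 35508709 counts each, and 3 counts, taken as the floor of detection, came to between 0.0845 and 0.114 CPM, the usual scaling of counts to library size. Reads were counted without molecular identifiers, so such floors cover counting error only. Levels are given as CPM after TMM normalization, and fold changes are knockout over control on the log2 scale with the standard error (SE) of the fit. P-values measure only the spread between these libraries. Junb itself, the targeted gene, was at 4752 and 5329 CPM in HET against 606 and 561 CPM in KO PP Tregs. It was at 4438 to 5872 CPM in iHET against 941 and 960 CPM in iKO CD25- PP Tregs, and at 6652 to 8158 against 963 to 987 CPM in colonic Tregs. Its log2 fold changes were -3.11, -2.44 and -2.91, and in CD25- PP Tregs even this one had an edgeR adjusted p of 0.0940. Treg markers (Foxp3, Il2ra, Ikzf2, Ctla4, Tnfrsf18, Ikzf4 and Nrp1) summed to between 2920 and 6512 CPM and all 7 were detected in each library. Transcripts of other cells were present throughout, since B cell markers summed to 1788 to 2497 CPM in PP, 967 to 1162 CPM in CD25- PP and 230 to 429 CPM in colonic libraries. In bulk libraries, fewer cells of a type and less RNA per cell cannot be told apart.

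Genes with low p-values were denser around Junb than over all genes. In PP Tregs, 9 of 127 genes tested in the 10 Mb window were called differentially expressed at an FDR of 0.05 (5 higher and 4 lower in KO), beside 3.35% of all 12224 genes tested (edgeR's quasi-likelihood test, Benjamini-Hochberg adjustment over all genes). A total of 34 window genes (26.8%) had an unadjusted p under 0.05, beside 14% of all genes. In CD25- PP Tregs edgeR called 0 of 144 window genes, and 0% of all 17079 genes passed, with 17 window genes (11.8%) under an unadjusted p of 0.05 beside 3.62% of all genes. DESeq2 and the exact test of the study also called 0 window genes there, with 35 and 43 calls over all genes. In colonic Tregs edgeR called 0 of 144 window genes and 0.00613% of all 16313 genes, which was Junb alone, with 17 window genes (11.8%) under an unadjusted p of 0.05 beside 3.87% of all genes. DESeq2 called 1 window gene there (50 over all genes) and the likelihood ratio test of the study 0 (25 over all genes).

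The share of low p-values did not fall evenly with distance from Junb. Within 1 Mb, 38.5% of 52 genes had an unadjusted p under 0.05 in PP Tregs, 13.5% of 52 in CD25- PP Tregs and 18.5% of 54 in colonic Tregs. Genes that start before Junb made up most of these, at 45.5%, 17.1% and 25% beside 26.3%, 5.88% and 5.56% of those that start after it, where only 17 to 19 genes were tested. The shares between 1 and 2.5 Mb were 22.2%, 8.33% and 9.09%, and between 2.5 and 5 Mb they were 36.4%, 0% and 14.3%, the latter over 11 to 15 genes. Between 5 and 10 Mb they were 13%, 15.1% and 5.56%. Outside the window, between 10 and 20 Mb, they were 12.1%, 6.98% and 6.59%, beside 14%, 3.62% and 3.87% of all genes. Beyond 20 Mb on the same chromosome the shares were 13.3%, 4.09% and 2.91%. These shares were not tested, since the window was defined with the result known.

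**Figure D1:**
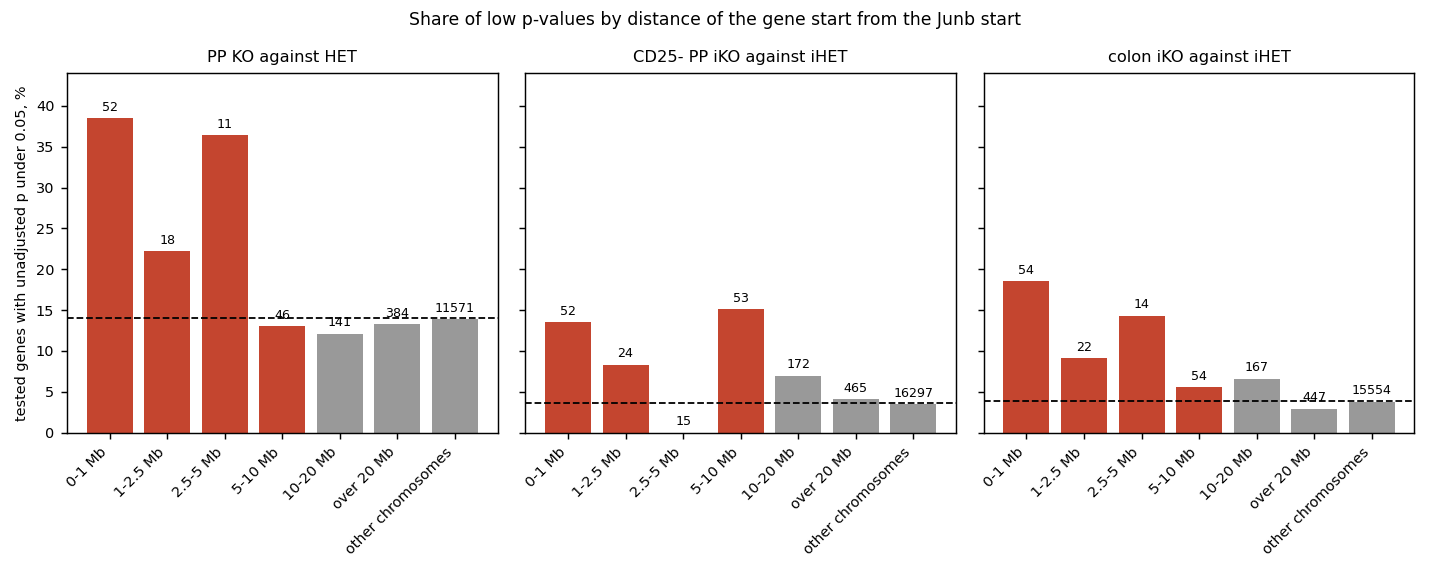
Bars give the share (%) of tested genes with an unadjusted p under 0.05 (y axis) by the distance of the gene start from the Junb start on chromosome 8 (x axis, with all other chromosomes last), in 1 panel per genotype comparison. Numbers above bars are genes tested, red bars lie within 10 Mb and the dashed line is the share over all genes. Within 1 Mb the shares were 38.5%, 13.5% and 18.5%, above the lines at 14%, 3.62% and 3.87%.

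Among the 10 genes, 4 were called in PP Tregs (Adgrg1 and Adgre5 higher, Mri1 and Hmox1 lower in KO), which is to be read beside the 3.35% of all genes called and the use of this contrast to choose them. None of the 10 was called in CD25- PP Tregs (0% of all genes) or in colonic Tregs (0.00613%). An unadjusted p under 0.05 was found for 6 of the 10 in PP, 7 in CD25- PP and 2 in colonic Tregs. Over all genes the shares were 14%, 3.62% and 3.87%, and these same p-values were used to choose the 10. KO and HET libraries did not overlap for 7 of the 10 in PP Tregs, beside 43.6% of all genes. For CD25- PP Tregs the count was 9, beside 32.2%, and for colonic Tregs 4, beside 8.3%. The 9 include Lpcat2, which passed the filter there only through its iHET libraries. The calls in PP Tregs needed both HET libraries. Without HET replicate 1, and likewise without HET replicate 2, 1 window gene was called in place of 9, and none of the 10 genes was. In these fits HET is a single library, assumed to vary like the KO libraries, and the log2 fold changes were 1.58 and 2.02 for Adgrg1, 0.47 and 0.62 for Adgre5, -0.53 and -0.54 for Mri1 and -0.92 and -0.85 for Hmox1. Without KO replicate 1 Hmox1 was not called, and without KO replicate 2 Mri1 was not. The other genes called in the window included Podnl1 (log2 fold change 1.03) and Il27ra (0.41), both higher in KO Tregs, and Ces1f and Gm42031, which had 0 or 1 counts in each KO library against 35 to 199 in HET libraries. Ces1f and Gm42031 passed the filter only through their HET libraries, so their lower KO values are not independent of the filter.

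**Figure D2:**
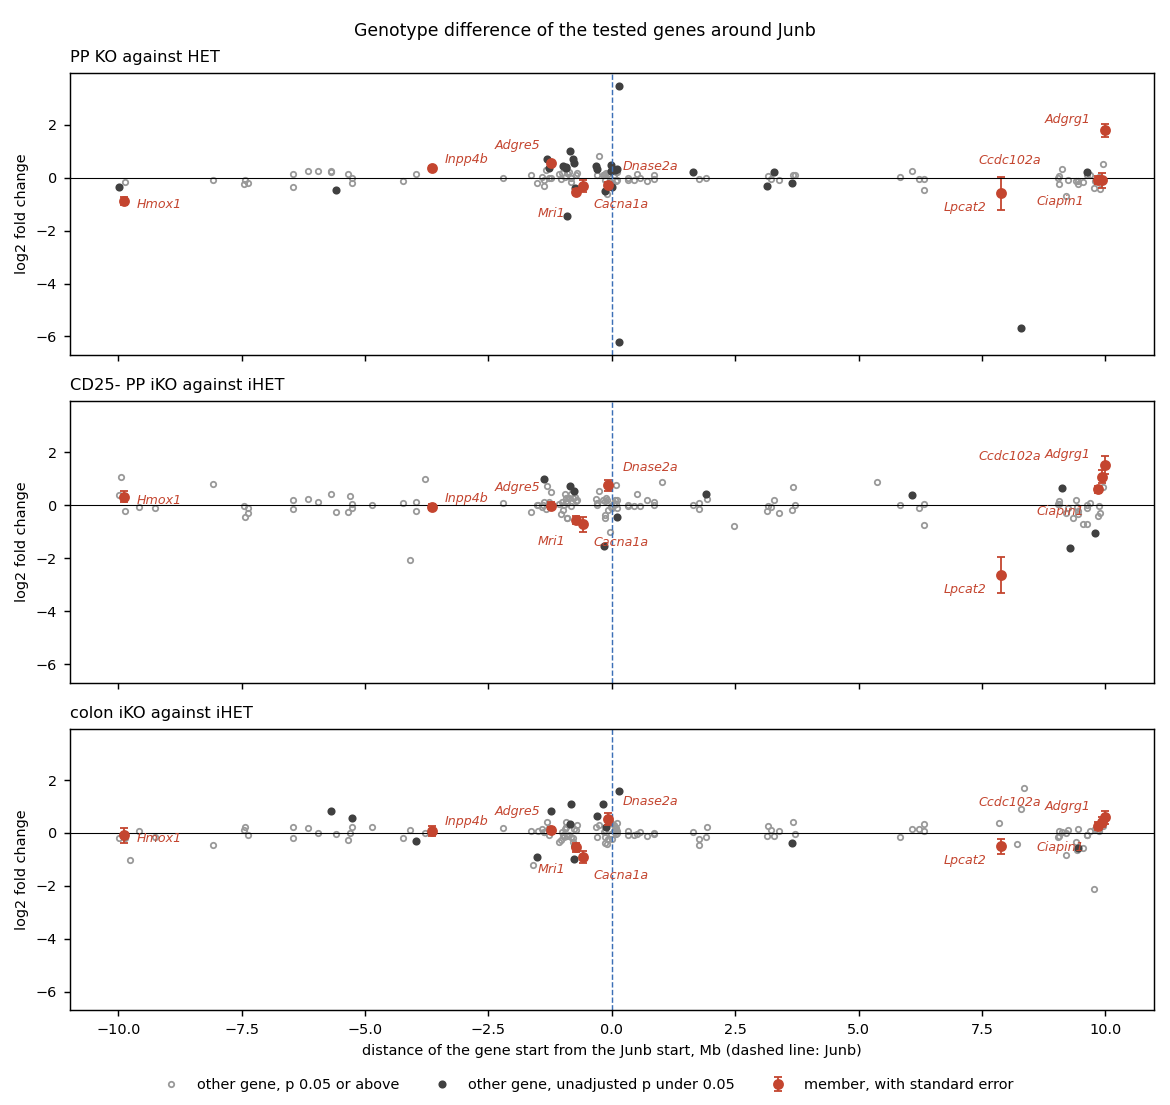
Each point is a tested gene within 10 Mb of Junb, with the distance of its start from the Junb start in Mb (x axis) and its log2 fold change of knockout over control (y axis), in 1 panel per genotype comparison. The 10 genes are red and named, with the standard error of the fit as bars, and filled grey points have an unadjusted p under 0.05. The lowest points of the top panel are Gm42031 and Ces1f, whose fitted fold changes rest on 0 or 1 counts in KO libraries, and Lpcat2 lies at -2.62 in CD25- PP Tregs, where it had 5 and 8 counts in iKO libraries.

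Adgrg1 and Adgre5 encode adhesion G protein-coupled receptors, which join a long extracellular part for contact with other cells or matrix to a signalling part in the membrane. Adgrg1 (GPR56) is known from cytotoxic lymphocytes, and Adgre5 (CD97) is a leukocyte receptor that binds CD55. Adgrg1 (ENSMUSG00000031785.16, chromosome 8 of GRCm38 from 94974751 to 95014217, 9.996 Mb from Junb) was at 5.84 and 7.90 CPM in HET and at 28.5 and 19.1 CPM in KO PP Tregs. It was at 3.17 and 3.34 CPM in iHET and at 11.8 and 7.06 CPM in iKO CD25- PP Tregs. In the colon it was at 4.34, 4.79 and 7.00 CPM in iHET and at 6.08, 9.21 and 8.96 CPM in iKO Tregs. Both knockout libraries from PP lay above both controls in each line, whereas in the colon iKO replicate 1 lay below iHET replicate 3. The log2 fold changes were 1.79 (SE 0.238, edgeR adjusted p = 0.0114), 1.52 (0.329, adjusted p = 0.999) and 0.59 (0.244, adjusted p = 0.947) in PP, CD25- PP and colonic Tregs. The 12 markers of cytotoxic lymphocytes summed to 490 and 696 CPM in HET against 153 and 84.0 CPM in KO PP libraries. Most of the sums in both HET libraries and in KO replicate 1 came from Gzma and Gzmb, granzyme genes that Tregs can express themselves. In KO replicate 2 these were at 12.4 and 18.6 CPM, and the other markers made up most of the sum. Not all markers were lower in KO libraries, since Eomes was at 1.55 and 0.79 CPM in HET against 6.27 and 2.56 CPM in KO and Cd8a at 6.80 and 10.31 against 7.80 and 11.3 CPM, and Ncr1 had 0 counts in both HET libraries. In the other comparisons these sums were 424 and 490 against 437 and 587 CPM (CD25- PP) and 423 to 461 against 152 to 276 CPM (colon). Their part in the level of Adgrg1 was not tested.

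Adgre5 (ENSMUSG00000002885.14, 83723251 to 83741326, 1.24 Mb from Junb) was at 369 and 410 CPM in HET and at 567 and 573 CPM in KO PP Tregs, a rise of 0.55 on the log2 scale (SE 0.086, edgeR adjusted p = 0.0159). In CD25- PP Tregs it was at 411 and 472 CPM in iHET against 447 and 425 CPM in iKO, and in the colon at 473, 645 and 524 against 603, 633 and 535 CPM. The groups did not overlap in PP Tregs of the Foxp3YFPcre line and overlapped in both comparisons of the inducible line, with log2 fold changes of -0.02 (0.132) and 0.12 (0.118). Of its 3757 exon bases, 926 also belong to other genes, mainly Ddx39, and reads there cannot be assigned to either gene by counting without strand. Ddx39 had a log2 fold change of 0.0042 in PP Tregs.

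Another pair of adhesion receptor genes of the window is given for comparison. Adgrg5, 9.94 Mb from Junb and next to Adgrg1, was at 9.94 and 9.87 CPM in HET and at 9.04 and 19.1 CPM in KO PP Tregs, with a log2 fold change of 0.50 (0.318), and its groups overlapped. Adgrl1, 1.08 Mb from Junb, had log2 fold changes of 0.14, 0.06 and -0.36 in PP, CD25- PP and colonic Tregs, none of them called. Of 22 adhesion receptor genes listed, 7 were tested in PP Tregs. The 2 called, beside 3.35% of all genes, were Adgrg1 and Adgre5, which were chosen with the use of this contrast. The count is therefore no result about the family. The median log2 fold change of the 7 was 0.14 beside 0.0030 over all genes. Of 16 tested in each inducible comparison edgeR called none, with 3 (CD25- PP) and 1 (colon) under an unadjusted p of 0.05, and medians were -0.09 and 0.10.

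**Figure D3:**
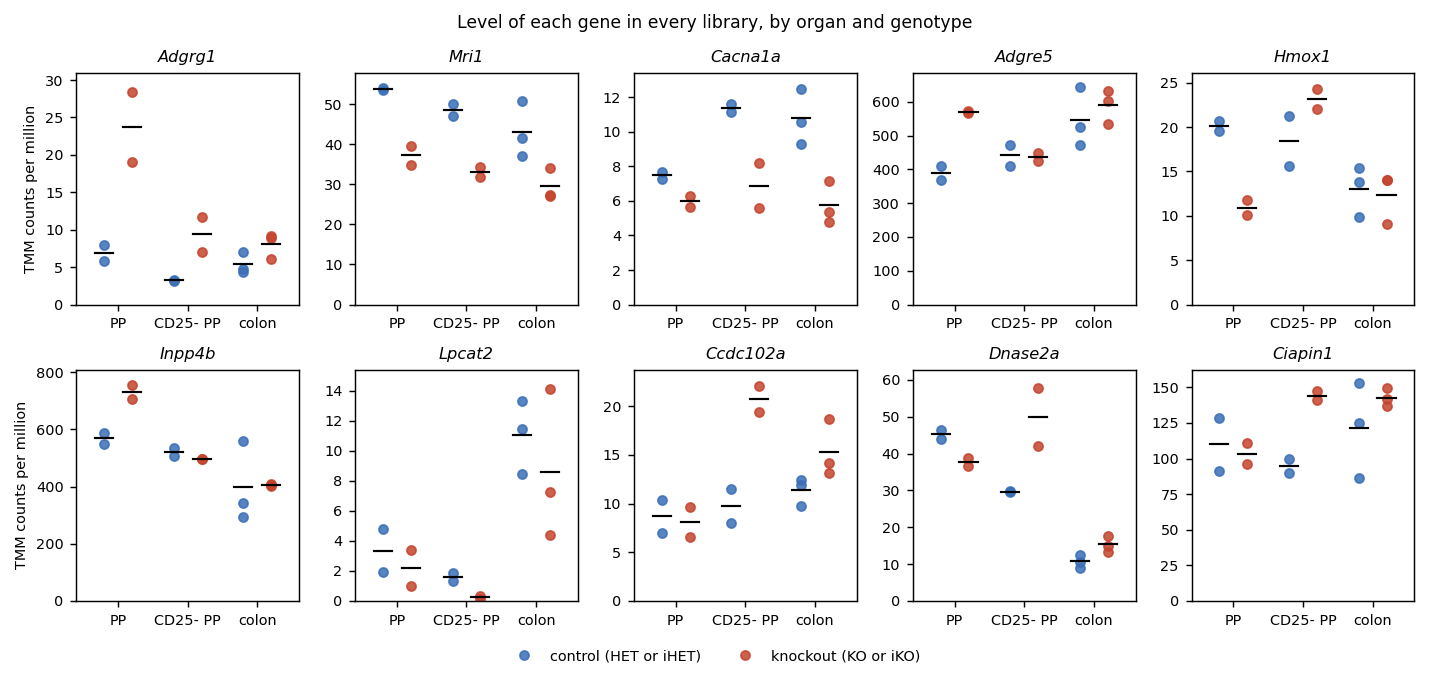
Each panel plots the level of 1 gene in TMM-normalized CPM (y axis, starting at 0) in every library of PP, CD25- PP and colonic Tregs (x axis), with control libraries in blue, knockout libraries in red and the group mean as a black line. Mri1 and Cacna1a are lower in all knockout libraries of each comparison, whereas Dnase2a is lower in PP and higher in CD25- PP and colonic knockout libraries.

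Mri1 encodes the methylthioribose-1-phosphate isomerase of the methionine salvage pathway, which recycles the sulfur compound left over from polyamine synthesis. Mri1 (ENSMUSG00000004996.9, 84249906 to 84257326, 0.721 Mb from Junb) was at 54.1 and 53.6 CPM in HET and at 39.5 and 34.9 CPM in KO PP Tregs. It was at 47.0 and 49.96 CPM in iHET against 34.3 and 31.9 CPM in iKO CD25- PP Tregs. In the colon it was at 41.5, 36.9 and 50.8 CPM in iHET against 34.1, 27.3 and 27.2 CPM in iKO Tregs. Every knockout library lay below every control library in all 3 comparisons, at log2 fold changes of -0.53 (SE 0.110, edgeR adjusted p = 0.0426), -0.55 (0.147, adjusted p = 0.999) and -0.54 (0.166, adjusted p = 0.947). Its 3273 exon bases are shared with no other annotated gene. Of the 9 genes listed for methionine salvage and polyamines, all were tested in each comparison. Mri1, chosen with the use of this contrast, was the only 1 called in PP Tregs, beside 3.35% of all genes. The others in PP Tregs ran from -0.30 (Got1) to 0.11 (Mtap) on the log2 scale, and the list's medians were -0.10, -0.14 and 0.19 in PP, CD25- PP and colonic Tregs.

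Cacna1a encodes the pore-forming subunit of P/Q-type voltage-gated calcium channels, best known from nerve terminals. Cacna1a (ENSMUSG00000034656.18, 84388440 to 84640246, 0.590 Mb from Junb) was at 7.68 and 7.28 CPM in HET and at 5.67 and 6.27 CPM in KO PP Tregs. It was at 11.1 and 11.6 CPM against 8.19 and 5.56 CPM in CD25- PP Tregs, and at 12.5, 10.6 and 9.32 CPM against 7.14, 4.80 and 5.33 CPM in colonic Tregs. Every knockout library was below every control library in all 3 comparisons. The log2 fold changes were -0.32 (0.231), -0.72 (0.268) and -0.91 (0.217), and none passed the adjusted threshold. Of its 11418 exon bases, 435 are shared with Gm16183. Among 18 listed calcium channel subunits, 4, 16 and 11 were tested in PP, CD25- PP and colonic Tregs and edgeR called none, with 2, 1 and 1 under an unadjusted p of 0.05. Cacna1a, chosen with the use of these contrasts, was that 1 gene in both comparisons of the inducible line, while in PP Tregs they were Cacna2d4 and Cacnb1.

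Hmox1 encodes heme oxygenase 1, which opens the heme ring and is induced by heme and oxidative stress through NRF2. Hmox1 (ENSMUSG00000005413.8, 75093621 to 75100589, 9.89 Mb from Junb) was at 19.6 and 20.6 CPM in HET and at 10.05 and 11.8 CPM in KO PP Tregs, a fall of 0.88 on the log2 scale (SE 0.162, edgeR adjusted p = 0.0284). In CD25- PP Tregs it was at 21.3 and 15.6 CPM in iHET and at 24.3 and 22.1 CPM in iKO libraries, which is the opposite order, with a log2 fold change of 0.33 (0.210). In the colon it was at 9.91, 13.8 and 15.4 CPM against 14.0, 14.0 and 9.05 CPM, and the groups overlapped. Of 15 genes listed for heme breakdown and NRF2 targets, 12 were tested in PP Tregs and 2 were called, beside 3.35% of all genes. Both were lower: Hmox1, chosen with the use of this contrast, and Srxn1 (sulfiredoxin), the latter at -1.71. Hmox2, Blvra, Fth1 and Txnrd1 lay between -0.04 and 0.12 there, and the median of the list was 0.03. All 15 were tested in CD25- PP and colonic Tregs and edgeR called none, with 0 and 2 under an unadjusted p of 0.05. Myeloid cells are rich in Hmox1, and the 12 myeloid markers summed to 119 and 212 CPM in HET and to 170 and 117 CPM in KO PP libraries. In CD25- PP libraries they summed to 71.4 and 128 CPM against 89.5 and 97.3 CPM, with 0 counts of Fcgr1 in all 4. In the PP libraries epithelial sums were 202 and 156 CPM in HET against 73.0 and 64.2 CPM in KO, and erythroid sums were 3.70 and 18.8 against 0.605 and 0.110 CPM, so both were lower in KO libraries, as Hmox1 was. The part of these cells in the level of Hmox1 was not tested.

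Lpcat2 encodes a lysophosphatidylcholine acyltransferase that remodels membrane lipids and makes platelet-activating factor in inflammatory cells. Lpcat2 (ENSMUSG00000033192.5, 92855339 to 92919279, 7.88 Mb from Junb) was among the lowest of the 10 genes. It was at 1.94 and 4.77 CPM in HET and at 3.41 and 1.00 CPM in KO PP Tregs, and at 1.35 and 1.87 CPM (37 and 51 counts) in iHET against 0.161 and 0.307 CPM (5 and 8 counts) in iKO CD25- PP Tregs. In the colon it was at 8.47, 11.5 and 13.3 CPM in iHET and at 4.37, 7.23 and 14.1 CPM in iKO Tregs. The groups overlapped in PP and in the colon, and did not overlap in CD25- PP Tregs. There Lpcat2 passed the filter only through its iHET libraries, so the lack of overlap is not independent of the filter. The log2 fold changes were -0.59 (0.619), -2.62 (0.682) and -0.51 (0.270), none of them called. In PP Tregs the libraries with more Lpcat2, HET replicate 2 and KO replicate 1, were also those with more myeloid marker counts (212 and 170 CPM against 119 and 117 CPM), and the part of these cells was not tested. The colonic iKO libraries had the opposite order, with Lpcat2 at 4.37, 7.23 and 14.1 CPM beside myeloid sums of 283, 181 and 118 CPM, while their epithelial sums were 197, 878 and 2030 CPM. In the colonic iHET libraries, with Lpcat2 at 8.47, 11.5 and 13.3 CPM, myeloid sums were 199, 115 and 325 CPM. Epithelial sums there were 436, 1047 and 276 CPM, so neither sum ran in the order of Lpcat2. The part of epithelial cells was not tested either. Of the 14 acyltransferase genes listed, 13, 14 and 14 were tested in PP, CD25- PP and colonic Tregs and edgeR called none, with 5, 3 and 0 under an unadjusted p of 0.05.

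Inpp4b encodes a phosphatase that removes a phosphate from PI(3,4)P2, a lipid made downstream of PI3 kinase. Inpp4b (ENSMUSG00000037940.17, 81342556 to 82127914, 3.64 Mb from Junb) was at 587 and 550 CPM in HET and at 705 and 755 CPM in KO PP Tregs, which is 0.36 on the log2 scale (SE 0.086, edgeR adjusted p = 0.0737), so it was not called. It was called there by the exact test of the study (adjusted p = 0.0231), by DESeq2 (0.00207), with no filter on low counts (0.00127) and with a replicate block (0.00587). It was at 535 and 506 CPM against 496 and 495 CPM in CD25- PP Tregs, a log2 fold change of -0.07 (0.120). The colonic iHET libraries were spread from 292 to 559 CPM, with the 3 iKO libraries at 403 to 410 CPM between them. Of 14 phosphoinositide phosphatase genes listed, 13, 14 and 14 were tested and edgeR called none, with 3, 0 and 1 under an unadjusted p of 0.05. Inpp4b shares no exon bases with another gene.

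Dnase2a encodes the acid nuclease of lysosomes, which degrades DNA taken up from dead cells. Dnase2a (ENSMUSG00000003812.13, 84908560 to 84922915) was the nearest of the 10 genes, 0.0702 Mb from Junb. It was at 44.1 and 46.4 CPM in HET and at 38.8 and 36.6 CPM in KO PP Tregs, with a log2 fold change of -0.26 (0.105). It was at 29.8 and 29.6 CPM in iHET and at 42.0 and 57.9 CPM in iKO CD25- PP Tregs, with a log2 fold change of 0.75 (0.194). In the colon it was at 12.5, 10.7 and 8.94 CPM in iHET and at 15.0, 13.3 and 17.8 CPM in iKO, with a log2 fold change of 0.52 (0.225). The groups did not overlap in any comparison, but knockout libraries were the lower ones in PP Tregs and the higher ones in both comparisons of the inducible line. Of its 5389 exon bases 1616 are shared with Mast1, which was at 0.795 to 5.40 CPM over all libraries, and so its counts are uncertain by that overlap. Of 9 genes listed for DNA degradation, 7 were tested in each comparison, and Dnase1l3, a secreted nuclease, was the only 1 called (PP Tregs, -1.52, edgeR adjusted p = 0.00348). In CD25- PP and colonic Tregs edgeR called none, with 1 and 0 under an unadjusted p of 0.05.

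Of the other tested genes that start up to 0.107 Mb before or 0.103 Mb after Junb, Rnaseh2a was at a mean of 36.01 CPM in HET and 50.9 CPM in KO PP Tregs (log2 fold change 0.50, edgeR adjusted p = 0.0506), and Prdx2, Hook2 and Tnpo2 had log2 fold changes of 0.24, -0.36 and 0.30 there. In the inducible line Rnaseh2a was at -0.01 and 0.36, Prdx2 and Hook2 were between -0.05 and -0.23, and Tnpo2 at 0.21 and 0.17. Prdx2 shares 173 exon bases with Junb. Gcdh, Syce2, Asna1, Trir, Fbxw9, Dhps, Wdr83 and Mast1 made up the rest, with log2 fold changes between -0.60 and 0.21 in PP Tregs, and none of these neighbours was called in any genotype comparison.

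Ciapin1 encodes a protein of cytosolic iron-sulfur cluster assembly, which hands electrons to the assembly machinery. Ciapin1 (ENSMUSG00000031781.14, 94819804 to 94838358, 9.86 Mb from Junb) was at 129 and 91.5 CPM in HET and at 111 and 95.9 CPM in KO PP Tregs. In CD25- PP Tregs it was at 90.0 and 99.6 CPM in iHET and at 141 and 147 CPM in iKO, which is 0.60 on the log2 scale (SE 0.124), with the groups apart. In the colon it was at 86.3, 125 and 153 CPM against 137, 142 and 149 CPM, which overlapped. Of 9212 exon bases 839 are shared, mainly with Coq9, which had log2 fold changes of -0.08, -0.40 and 0.10. Of 12 genes listed for cytosolic iron-sulfur assembly, 9 were tested in each comparison and edgeR called none, with 1, 2 and 1 under an unadjusted p of 0.05. Ccdc102a (ENSMUSG00000063605.5, 94902869 to 94918098, 9.94 Mb from Junb) was at 10.4 and 6.99 CPM against 6.60 and 9.64 CPM in PP Tregs, which overlapped. It was at 11.5 and 7.97 CPM in iHET and at 19.4 and 22.1 CPM in iKO CD25- PP Tregs, and at 9.78, 11.9 and 12.4 CPM against 14.2, 13.1 and 18.7 CPM in colonic Tregs. Knockout libraries lay above all controls in both comparisons of the inducible line, with log2 fold changes of 1.08 (0.238) and 0.42 (0.192), and edgeR called neither.

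Direction over the 3 comparisons is part of how the 10 genes were chosen, and is given as a description. Adgrg1 was higher, and Mri1, Cacna1a and Lpcat2 were lower, in knockout Tregs of all 3 comparisons, which is 4 of the 10 genes beside 25% of 11737 genes tested in all 3. For Lpcat2 the groups overlapped in PP and colonic Tregs, and its sign in PP Tregs turned without HET replicate 2 and without KO replicate 2 (-1.70 to 0.18 over the libraries left out). Over the whole window it was 51 of 121 genes (42.1%), and within 1 Mb 25 of 49 (51%). Groups did not overlap and moved the same way in all 3 comparisons for 4 window genes (Mmaa, Il27ra, Mri1 and Cacna1a), which is 3.31% beside 0.366% of all genes. The other 6 of the 10 genes changed sign between comparisons. The comparisons share no library, and PP Tregs of the Foxp3YFPcre line are in a table that was counted separately from that of the inducible line, so differences between these lines were not tested.

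**Figure D4:**
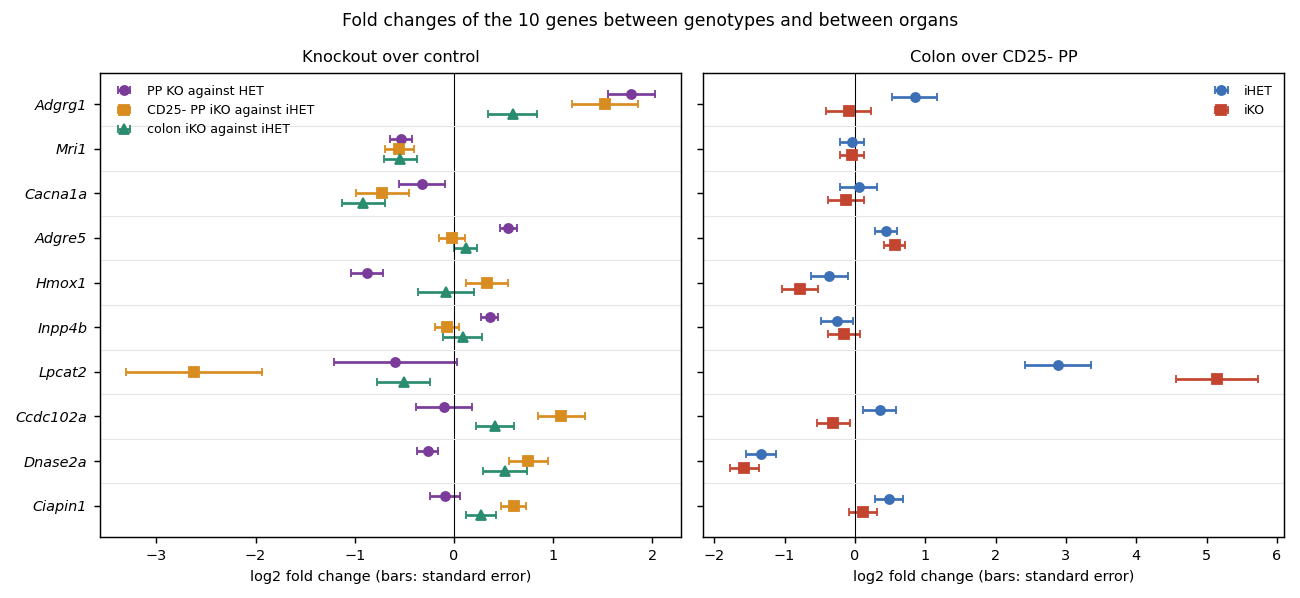
Points give the log2 fold change (x axis) of each of the 10 genes (y axis) with the standard error of the fit as bars, for knockout over control in 3 comparisons (left) and for colonic over CD25- PP Tregs in iHET and iKO mice (right). On the left Mri1 lies between -0.53 and -0.55 in all 3 comparisons, and on the right Lpcat2 lies far to the right and Dnase2a to the left in both genotypes.

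The rule did not use the difference between organs, but it used genotype differences from the same libraries. Lpcat2 and Dnase2a had their lowest genotype p-values in the CD25- PP libraries, which are the reference of the organ comparison, so its values are not independent of the choice and are given as a description, p-values included. Colonic and CD25- PP Tregs of the same genotype were compared in 1 fit of the 10 libraries. Organ and the CD25- gate, which was used only for PP, cannot be told apart. Lpcat2 was higher in colonic Tregs. In iHET mice it was at 8.74, 11.9 and 13.7 CPM in the colon against 1.27 and 1.76 CPM in PP, which is 2.89 on the log2 scale (SE 0.470, edgeR adjusted p = 0.0122). In iKO mice it was at 4.53, 7.45 and 14.7 CPM against 0.152 and 0.291 CPM, which is 5.15 on the log2 scale (SE 0.582, edgeR adjusted p = 0.00278). Every colonic library lay above every PP library, which held in either direction for 38.7% of all genes in iHET and 43.9% in iKO mice. Myeloid markers summed to 115 to 325 CPM in colonic and to 71.4 to 128 CPM in CD25- PP libraries. Adgre1 alone made up 42.8 to 58.5 CPM of each of these sums. C1qb was at 3.66 to 21.2 CPM in the colon against 0.891 to 1.79 CPM in CD25- PP, while Lyz2, Cd68 and Mrc1 overlapped. Epithelial markers summed to 197 to 2030 CPM in the colon and 176 to 425 CPM in PP, and the part of neither cell type was tested.

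Dnase2a was lower in colonic Tregs. It was at 12.9, 11.1 and 9.22 CPM in the colon against 28.1 and 27.8 CPM in PP of iHET mice, and at 15.5, 13.7 and 18.5 CPM against 39.8 and 55.0 CPM in iKO mice. Its log2 fold changes were -1.33 (0.212, edgeR adjusted p = 0.00735) and -1.57 (0.211, adjusted p = 0.00523), again with no overlap. B cell markers were also lower in the colon (230 to 429 CPM against 967 to 1162 CPM), and their part was not tested. These 2 of the 10 genes were called in each genotype, beside 6.45% of all 18626 genes in iHET and 4.07% in iKO mice, and beside 7 and 6 of 163 window genes. Without iHET CD25- PP replicate 2, neither gene was called in iHET mice (log2 fold changes between 2.67 and 3.13 for Lpcat2 and between -1.46 and -1.21 for Dnase2a over all libraries left out), and without iHET CD25- PP replicate 1 Lpcat2 was not. In iKO mice Lpcat2 was not called without CD25- PP iKO replicate 1, nor Dnase2a without CD25- PP iKO replicate 2. edgeR called none of the other 8 genes between organs with all libraries. DESeq2 called Adgre5 in both genotypes and Hmox1 in iKO mice, and without colonic iHET replicate 1 edgeR called Inpp4b and Ciapin1 in iHET and Adgre5 in iKO mice. Mri1 had log2 fold changes of -0.04 (SE 0.171) in iHET and -0.04 (0.171) in iKO mice, and Cacna1a of 0.05 (0.260) and -0.13 (0.262). Adgre5 had values of 0.44 (0.150) and 0.57 (0.150).

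Whether a genotype difference itself differed between organs was tested as an interaction over the 10 libraries. No gene was called by edgeR (0% of 18626), with 3.34% at an unadjusted p under 0.05, and DESeq2 called 2, of which 0 lay in the window. For Mri1 the genotype difference in the colon minus that in CD25- PP was 0.0032 on the log2 scale (SE 0.242), and for Lpcat2 it was 2.26 (0.748, edgeR adjusted p = 1.00). For Adgrg1 it was -0.94 (0.454) and for Ccdc102a -0.66 (0.333), so that the size of these differences between organs was not resolved by 2 and 3 libraries per group.

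Levels of different genes were compared per kilobase of exon (RPKM). Adgre5 was the highest of the 10 genes in all 6 groups, with a mean of 103.7 RPKM in HET and 152 RPKM in KO PP Tregs, and Inpp4b was the second, at 31.5 to 55.9 RPKM. Mri1, Ciapin1 and Hmox1 lay between 6.23 and 16.5 RPKM. In HET PP Tregs Ciapin1 (9.93 to 14.0 RPKM) and Hmox1 (11.2 to 11.8 RPKM) did not differ beyond their spread, and in colonic iHET Tregs neither did Ciapin1 and Mri1. Dnase2a was at 8.40 and 7.00 RPKM in HET and KO PP Tregs, at 5.19 and 8.79 RPKM in iHET and iKO CD25- PP Tregs, and at 2.06 and 2.95 RPKM in colonic Tregs. Ccdc102a lay between 3.24 and 7.85 RPKM. Adgrg1, Cacna1a and Lpcat2 were the lowest 3 in CD25- PP and in HET PP Tregs, and the ranges of Adgrg1 and Lpcat2 overlapped in HET PP Tregs. In KO PP Tregs Adgrg1, at 4.39 RPKM, stood above Ccdc102a on average, and 40.8% of tested genes had a lower mean level.

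The gene whose pattern was most like that of each of the 10 genes was found over the 10 libraries of the inducible line, as Pearson's r of log2 CPM after the mean of each organ was taken off. These values are descriptions over libraries that share genotype groups and organs. The closest were Rhov for Adgrg1 (r = 0.918), Prr5 for Mri1 (0.950), Dvl1 for Cacna1a (0.965), Pi15 for Adgre5 (0.964) and Srprb for Hmox1 (0.965). They were Gm20696 for Inpp4b (0.980), Gm35496 for Lpcat2 (0.930), Rab28 for Ccdc102a (0.966), Vrk2 for Dnase2a (0.939) and C1qtnf12 for Ciapin1 (0.956). None of these 10 genes lies on chromosome 8.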

How the data were processed

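The authors trimmed reads with TrimGalore and CutAdapt, aligned them with STAR to GRCm38, assigned them to genes with featureCounts at default settings, which use no strand, and deposited raw counts per gene in 1 table per Cre line. Reads of the inducible line were treated as single-end. Each table held gene counts only, and 0 columns were left unused.

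The 10 genes and all gene lists were chosen with earlier results of these data known. Named genes were the 10 genes, the genes called in the window (1 of them is not reported here), members of the lists and the genes nearest to Junb. Library totals were 26274861 to 35508709 counts, and depth limits Lpcat2 most, with 5 to 8 counts in iKO CD25- PP libraries. Genes with at least 1 CPM in 2 libraries (3 in the colon) were kept, normalized by TMM and tested with edgeR 4.0.16 (quasi-likelihood test, prior count 1, Benjamini-Hochberg FDR of 0.05 over all genes kept) in R 4.3.3. In the colon the replicate number was a term of the fit, because the study fitted the cage there (an iHET and an iKO mouse in each). That the number marks the cage is an assumption, which the sources used here do not state. Organs were compared in 1 fit of the 10 inducible libraries, and no test was run across the separately counted tables. Scripts were tested on simulated data. Alternatives were the tests of the study (edgeR's exact test, and its likelihood ratio test for the colon), DESeq2 1.42.0 and its size factors, other filters, prior counts and windows, a replicate block, and leaving out each library.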

Additional observations from a re-analysis of the deposited data

Results flagged for a closer look

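For 3 of the 10 genes every knockout library moved one way in PP Tregs and every knockout library the opposite way in a comparison of the inducible line. Groups without overlap were common, at 43.6% of all genes in PP, 32.2% in CD25- PP and 8.3% in colonic Tregs. How many of all genes did so in opposite directions was not counted, so the 3 genes are a description only. Hmox1 was at -0.88 on the log2 scale in PP and at 0.33 in CD25- PP Tregs, a difference of 1.21. Inpp4b was at 0.36 and -0.07 (SE 0.120 for the latter), a difference of -0.43. Dnase2a was at -0.26 in PP Tregs against 0.75 in CD25- PP and 0.52 in colonic Tregs, differences of 1.01 and 0.78. These differences were not tested, since the lines were counted and sequenced separately and differ in Cre driver, timing of deletion and sort gate, which cannot be told apart.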

How the results depend on the processing

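Over the window, the 9 genes called in PP Tregs became 34 at an unadjusted p, 15 with DESeq2 and 20 with no filter on low counts, and 1 to 7 when a library was left out (1 without either HET replicate). The 0 called became 17 at an unadjusted p in CD25- PP and 17 in colonic Tregs, 6 with no filter in CD25- PP (among them Adgrg1, Ccdc102a and Dnase2a) and 1 with DESeq2 in the colon. Between organs, the 7 called in iHET mice became 23 with DESeq2, 30 with no filter and 0 to 13 without a library (0 without CD25- PP iHET replicate 2), and the 6 in iKO mice became 22, 20 and 1 to 9 (1 without CD25- PP iKO replicate 1). The interaction had 5 calls with no filter, Lpcat2 among them. The cause was not tested.

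With a replicate block 19 window genes were called in PP Tregs, Inpp4b added to the 10 genes' calls, 0 in CD25- PP Tregs, and 4 (iHET) and 3 (iKO) between organs. Without the block the colon had 0. Same-numbered libraries correlated at 0.158 in PP, 0.0712 in CD25- PP and -0.02 to 0.296 in colonic Tregs, so these correlations do not show that the numbers pair libraries. In the inducible line the number does go with sex, since replicate 1 was male and the others female. A block there carries sex too, and fits without a block leave sex in the spread between libraries. Between organs sex was also not balanced, since colonic groups held a larger share of females than CD25- PP groups. The block stayed in the colonic fit only because the study fitted the cage, and whether number and cage match is not known.

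Signs turned for genes with small differences. The interaction of Mri1 was -0.020 with DESeq2 and with its size factors and -0.0077 with no filter. Leaving out a library gave, in PP Tregs, -0.40 to 0.21 for Ccdc102a, -0.32 to 0.17 for Ciapin1 and -1.70 to 0.18 for Lpcat2. In CD25- PP Tregs it gave -0.12 to 0.080 for Adgre5, and in the colon -0.37 to 0.26 for Hmox1 and -0.11 to 0.36 for Inpp4b. Between organs it gave -0.17 to 0.053 (Mri1) and -0.067 to 0.15 (Cacna1a) in iHET, and -0.41 to 0.32 (Adgrg1), -0.16 to 0.018 (Mri1) and -0.38 to 0.17 (Cacna1a) in iKO mice. For the interaction it gave -0.12 to 0.12 (Mri1), -0.43 to 0.12 (Cacna1a), -0.10 to 0.42 (Inpp4b) and -0.45 to 0.016 (Dnase2a). At 10 counts in every library Lpcat2 could not be fitted in CD25- PP Tregs or between organs.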
